A study of Mus musculus with 13 samples.

Results

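The long neural adhesion genes are 9 genes of very long bodies whose products sit at the cell surface and act where neural cells meet: Nrxn3, Lsamp, Ntm, Opcml, Cadm1, Cadm2, Pcdh9, Dscam and Ptprk. They were chosen by name, with earlier results of these data known. They are 9 of 21938 protein-coding genes of the main chromosomes and 9 of the 567 whose body is at least 300 kb. For each gene, the listed OLIG2 peaks along the body were counted per 100 kb and set against the density of the gene's chromosome, and H3K4me3 and H3K27me3 peaks were sought within 2 kb of any transcription start site (TSS). The libraries came from 3 cell types of the mouse oligodendrocyte lineage: neural stem cells (NSCs), oligodendrocyte precursor cells (OPCs) and newly formed oligodendrocytes (NFOs). NSCs came from cortices of CD-1 mice at embryonic day 14.5, were bought, and were expanded in culture with EGF and FGF. OPCs and NFOs were isolated from C57BL/6 brains at postnatal day 7 by immunopanning, OPCs on anti-PDGFRα and NFOs on anti-GalC plates. All cells were untreated and no group carried a transgene or deletion. Each combination of cell type and target has 1 library, so no test of a difference was made, and the intervals given are exact 95% Poisson intervals for counts and exact 95% binomial (Clopper-Pearson) intervals for shares, which cover counting error only. The strain label reads C57BL/6 for every sample, NSCs included, and the antibody labels of the H3K4me3 and H3K27me3 samples name each other's mark. The groups here follow the sample titles.

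Adhesion proteins of these families bind partners on a neighbouring cell and recruit scaffolds and signalling proteins inside their own cell. In the brain they are known for axon guidance, synapse formation and contact between neurons and glia. OLIG2 is a basic helix-loop-helix transcription factor required for the oligodendrocyte lineage, and such factors bind E-box sequences. H3K4me3 marks the promoters of genes that are active or ready for activity, and H3K27me3 is laid down by Polycomb repressive complex 2 over genes held silent.

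The promoters of marker genes gave a partial check of the labels. The highest H3K4me3 enrichment at Sox10, a transcription factor of the oligodendrocyte lineage, was 3.60-fold over input in NSCs, 8.88-fold in OPCs and 19.2-fold in NFOs, and H3K27me3 lay at Sox10 in NSCs (5.61-fold) and in neither OPCs nor NFOs. At Nes, the gene of the NSC intermediate filament nestin, H3K4me3 was listed in NSCs (8.88-fold) and OPCs (4.25-fold) and not in NFOs. Sox2, another NSC gene, had 9.84, 11.02 and 8.43-fold in NSCs, OPCs and NFOs, and Pdgfra, the OPC receptor gene, 8.41, 8.63 and 8.23-fold, so neither set the cell types apart. Cspg4, also of OPCs, had H3K4me3 in NSCs and OPCs and none in NFOs. Of 3 neuronal genes, Rbfox3 carried H3K27me3 in all 3 cell types and H3K4me3 in NSCs and OPCs, while Tubb3 and Snap25 carried H3K4me3 in all 3 and H3K27me3 in none. The myelin gene Mog had no listed H3K4me3 peak within 2 kb of a TSS in any cell type, NFOs included, and Mbp had one in NSCs (4.09-fold) and OPCs (5.01-fold) and none in NFOs.

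The 9 bodies cover 9.19 Mb on 5 chromosomes, in mm10 coordinates. The shortest is Cadm1 (chr9:47530173-47857637, 327.5 kb) and the longest Lsamp (chr16:39984361-42181679, 2197 kb). Only 5 protein-coding genes are longer than Lsamp, and 8 of the 9 are longer than the median long gene (450.5 kb). Opcml and Ntm are neighbours on chromosome 9, 69.3 kb apart and on opposite strands. GC content ran from 35.5% in Cadm2 to 43.3% in Cadm1, and was below that of the chromosome in all but Cadm1 and Dscam.

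The OLIG2 peaks that stand out in these genes are printed here from the GRCm38 (mm10) genome, plus strand, with every E-box (CANNTG, which reads the same on both strands) in capitals. The first pair are the peaks of highest fold enrichment over all 9 genes in OPCs and in NFOs, and both lie in Opcml. The other 3 lie within 5 kb of a TSS of the gene they belong to.

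Opcml OPC peak, chr9:28561186-28561415: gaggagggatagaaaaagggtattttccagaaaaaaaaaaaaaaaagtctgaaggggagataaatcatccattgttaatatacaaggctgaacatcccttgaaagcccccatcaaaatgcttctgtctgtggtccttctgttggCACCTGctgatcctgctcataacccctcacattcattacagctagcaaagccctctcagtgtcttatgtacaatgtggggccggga

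Opcml NFO peak, chr9:28029970-28030205: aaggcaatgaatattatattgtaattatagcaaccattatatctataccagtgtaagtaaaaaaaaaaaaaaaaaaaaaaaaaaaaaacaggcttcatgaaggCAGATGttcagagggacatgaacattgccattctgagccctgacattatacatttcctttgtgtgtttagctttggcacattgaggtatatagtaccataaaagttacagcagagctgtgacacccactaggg

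Nrxn3 OPC peak, chr12:88722417-88722646: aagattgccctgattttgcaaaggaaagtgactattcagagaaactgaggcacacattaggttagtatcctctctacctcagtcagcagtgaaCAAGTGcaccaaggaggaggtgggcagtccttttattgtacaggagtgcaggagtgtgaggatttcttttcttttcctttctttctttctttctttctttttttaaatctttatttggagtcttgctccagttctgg

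Ntm NFO peak, chr9:29017167-29017402: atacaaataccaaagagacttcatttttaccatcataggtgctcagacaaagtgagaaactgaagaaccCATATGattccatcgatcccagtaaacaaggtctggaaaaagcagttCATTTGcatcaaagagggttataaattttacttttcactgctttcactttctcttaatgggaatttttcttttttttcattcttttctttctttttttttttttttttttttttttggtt

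Opcml NFO peak at the inner promoter, chr9:28400404-28400639: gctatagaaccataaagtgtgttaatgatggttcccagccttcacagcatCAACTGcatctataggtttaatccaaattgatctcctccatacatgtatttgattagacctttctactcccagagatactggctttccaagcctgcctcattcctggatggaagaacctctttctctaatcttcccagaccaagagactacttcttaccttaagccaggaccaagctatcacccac

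The Opcml OPC peak was enriched 23.8-fold, higher than 97.3% of the OPC list, and held 1 E-box, CACCTG. The strongest Opcml NFO peak was enriched 26.9-fold, rank 150 of 16911, and held 1 E-box, CAGATG. It reaches into an exon of a non-coding Opcml transcript (chr9:28029507-28030026). The Nrxn3 OPC peak sits 345 bp before the first TSS of the gene, which places it outside the body. Its enrichment, 6.68-fold, was higher than 33.4% of the list. The peaks of Ntm (13.9-fold) and Opcml (6.79-fold) in NFOs lie 3025 and 2628 bp before an internal TSS of their gene. That TSS of Ntm had no H3K4me3 in any cell type, and that of Opcml is an inner promoter with H3K4me3 in all 3. The Opcml peak, named above by that inner promoter, lies outside its 2 kb window. It overlapped no listed H3K4me3 or H3K27me3 peak of any cell type.

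**Figure D1:**
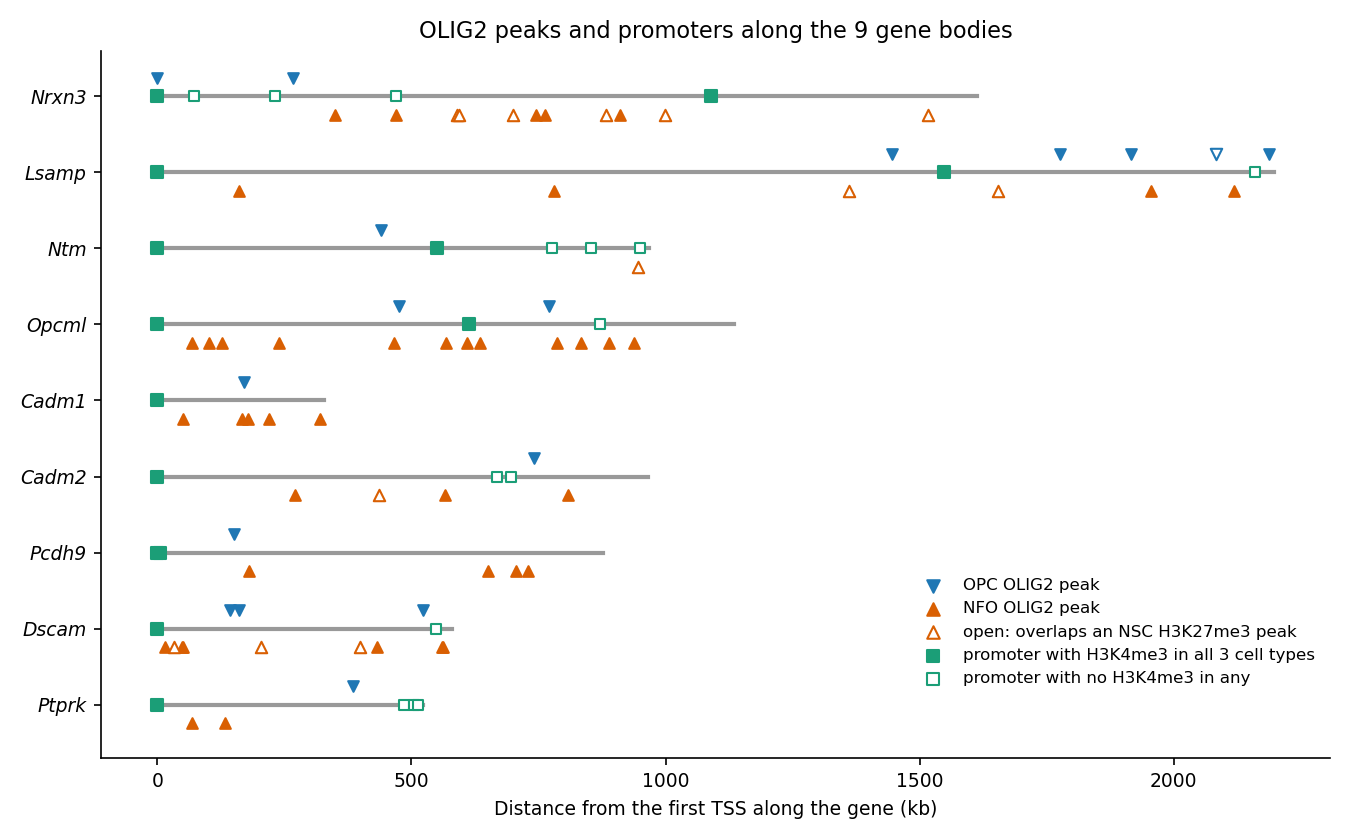
Each line is a gene body, drawn from its first TSS (0 kb) in the direction of transcription. Downward triangles are OPC OLIG2 peaks (16 in bodies and 1 just before Nrxn3), upward triangles NFO OLIG2 peaks (54), open triangles those that overlap an H3K27me3 peak of NSCs, and squares are promoters, filled where H3K4me3 was listed in all 3 cell types and open where in none. Peaks are spread along the bodies rather than gathered at promoters, and no OPC peak overlaps an NFO peak.

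All 9 bodies held at least 1 listed OLIG2 peak in both cell types, as did 68.3% of long genes in OPCs and 90.8% in NFOs. The 9 were chosen with earlier results of these data known, and 8 of them are longer than the median long gene. Their share is therefore not a like comparison with that of the long genes. In OPCs the bodies held 16 peaks, or 0.174 per 100 kb, where the density of their chromosomes would give 26.2. The ratio was 0.610 (0.349 to 0.991). In NFOs they held 54 peaks, or 0.588 per 100 kb, where the chromosomes would give 61.1, a ratio of 0.884 (0.664 to 1.15). Over all 567 long genes the pooled ratio was 0.896 in OPCs and 0.863 in NFOs. The density was above that of the chromosome in 1 of the 9 genes in OPCs (36.7% of long genes) and in 4 in NFOs (34.2%). The OPC count rested on which peaks were used. It was 2 (Cadm1 at 1.07 and Dscam) with the filter of the methods, FDR under 0.05 and fold over 5, against 38.6% of long genes. With a fold over 10 it was 4 (Lsamp at 1.04, Opcml at 1.82, Pcdh9 at 1.66 and Dscam at 1.97), against 30% of long genes. The ratio was higher in NFOs than in OPCs for 6 of the 9 genes, against 50.8% of long genes. The NFO list is longer than the OPC list (16911 against 7384 peaks), and the read depths behind the lists are unknown.

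**Figure D2:**
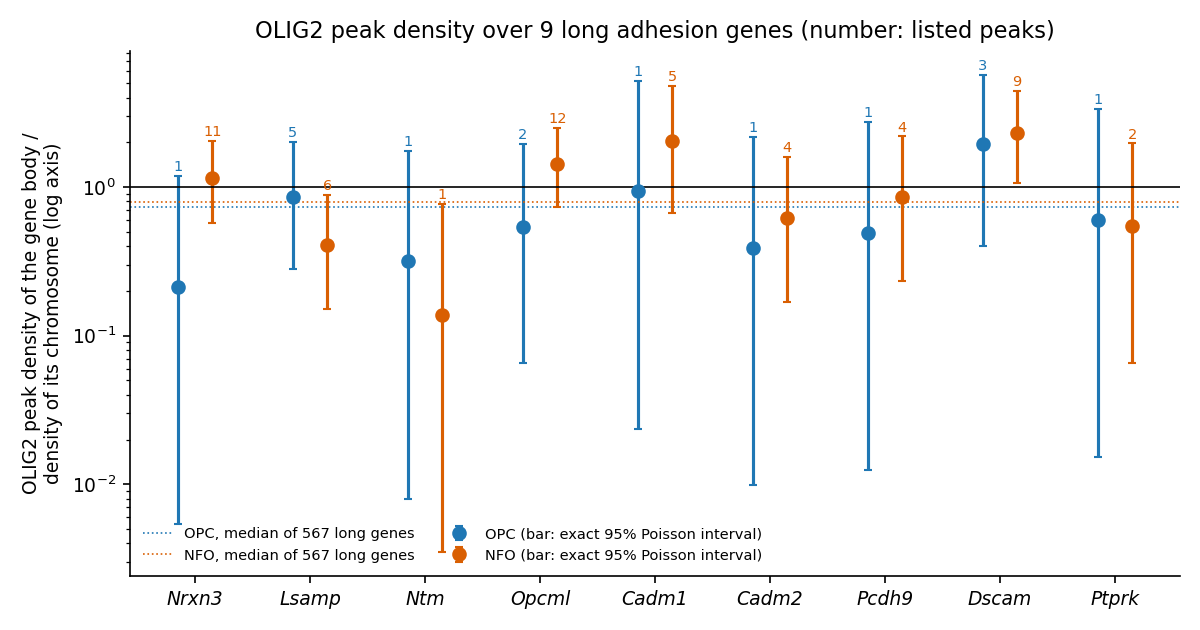
OLIG2 peak density of each gene body divided by that of its chromosome, on a log axis, in OPCs and NFOs. Points are ratios, bars exact 95% Poisson intervals, numbers the listed peaks, dotted lines the medians of the 567 long genes (0.734 in OPCs, 0.793 in NFOs), and the NFO interval lies above 1 for Dscam alone and below 1 for Lsamp and Ntm.

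Dscam, an immunoglobulin superfamily receptor known for guiding axons and keeping neurites of like cells apart, had the highest density of the 9 in both cell types. It held 3 peaks in OPCs (0.517 per 100 kb against 0.265 on chromosome 16) and 9 in NFOs (1.55 against 0.668). The ratios were 1.95 (0.403 to 5.71) and 2.32 (1.06 to 4.41). The NFO ratio ranked 21st of 567 long genes, and an interval wholly above 1 was seen in 2.47% of them. The 9 NFO peaks were enriched between 2.30 and 13.0-fold, and 1 of them touches a coding exon (chr16:96772405-96772578).

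Among the 3 IgLON genes, which encode small glycolipid-anchored immunoglobulin proteins of the neuronal surface, the peak counts differed. The intervals of all 3 overlapped in both cell types, those of Opcml (from 0.734) and Ntm (to 0.772) in NFOs only narrowly. Overlap of intervals is not a test and does not show that the densities are alike. Opcml held 2 peaks in OPCs and 12 in NFOs, with ratios of 0.540 (0.0653 to 1.95) and 1.42 (0.734 to 2.48). Its NFO peaks were enriched between 3.93 and 26.9-fold. Ntm, its neighbour, held 1 peak in each, with ratios of 0.316 (0.00800 to 1.76) in OPCs and 0.139 (0.00351 to 0.772) in NFOs. The 9.17% of long genes with a lower NFO ratio than Ntm held no peak. Lsamp held 5 peaks in OPCs and 6 in NFOs, with ratios of 0.860 (0.279 to 2.01) and 0.409 (0.150 to 0.890). The first of the 5 OPC peaks of Lsamp lies 65.8% of the way along its body and the last 99.6%, while its NFO peaks begin at 7.31%. The NFO intervals of Ntm and Lsamp lay below 1, as in 1.94% of long genes. An interval can lie below 1 only where enough peaks are expected, and the chromosome density would give 7.21 for Ntm and 14.7 for Lsamp. Many long genes are shorter and would be given fewer, so that share is not a like comparison.

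Nrxn3, a presynaptic receptor that binds neuroligins, LRRTM proteins and cerebellins, held 1 peak in OPCs and 11 in NFOs. The ratios were 0.214 (0.00542 to 1.19) and 1.14 (0.572 to 2.05). Its NFO peaks ranged from 3.95 to 16.7-fold, with a median of 6.04. Cadm1 and Cadm2 encode immunoglobulin proteins of synaptic and axon-glia contacts. Cadm1 held 1 peak in OPCs (ratio 0.935, 0.0237 to 5.21) and 5 in NFOs (ratio 2.05, 0.666 to 4.78). Cadm2 held 1 peak in OPCs (ratio 0.391, 0.00990 to 2.18) and 4 in NFOs (ratio 0.620, 0.169 to 1.59). The intervals of the pair overlapped in both cell types.

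Pcdh9, a protocadherin outside the clustered families, held 1 peak in OPCs (ratio 0.494, 0.0125 to 2.75) and 4 in NFOs (ratio 0.855, 0.233 to 2.19). Ptprk, a receptor tyrosine phosphatase that binds its own kind on the opposite cell, held 1 peak in OPCs (ratio 0.598, 0.0151 to 3.33) and 2 in NFOs (ratio 0.544, 0.0658 to 1.96). In the order of NFO ratios, Dscam, Cadm1, Opcml, Nrxn3, Pcdh9, Cadm2, Ptprk, Lsamp and Ntm, the intervals of all neighbours overlapped. Neighbours in such an order are the closest pairs. The interval of Dscam (1.06 to 4.41) did not overlap those of Lsamp (0.150 to 0.890) and Ntm (0.00351 to 0.772).

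**Figure D3:**
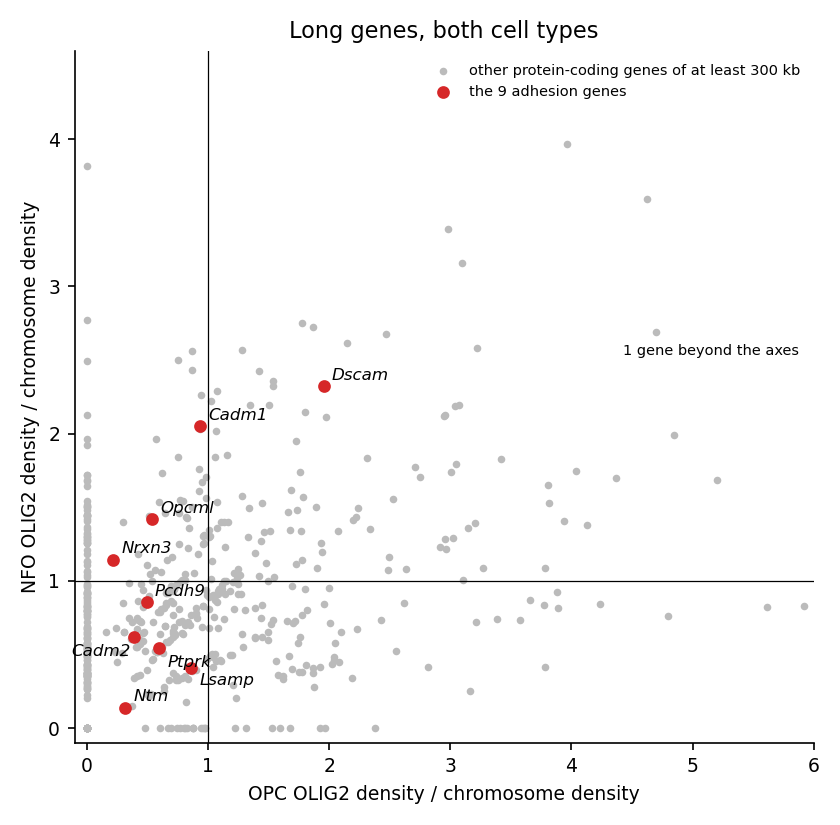
OLIG2 peak density divided by the density of the chromosome in OPCs (horizontal axis) and NFOs (vertical axis) for the 567 protein-coding genes of at least 300 kb, with 1 gene beyond the axes. Each point is a gene, the 9 adhesion genes are in red, and Dscam is the only one of them above 1 on both axes with all listed peaks, while Cadm1 joined it with the filter of the methods (1.07 and 1.95) and Opcml with a fold over 10 (1.82 and 1.91).

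None of the 16 OPC peaks in the bodies overlapped an NFO peak by 1 bp or more, which with 3 counts as the limit for a count of 0 allows a share of up to 18.8%. Over the whole OPC list 14.3% of peaks overlapped an NFO peak, and over the whole NFO list 6.26% overlapped an OPC peak. None of the 54 NFO peaks in the bodies overlapped an OPC peak, which allows up to 5.56%, and the exact binomial interval reaches 6.60%, so a lower share than in the lists was not detectable at these counts. The closest pair lay in Cadm1, 2.55 kb apart (47699796 in OPCs and 47697248 in NFOs), and the median distance from an OPC peak to the nearest NFO peak was 41.3 kb. Of the 70 peaks, 66 lay within introns, all 16 of OPCs and 50 of 54 of NFOs. The remaining 4 touched an exon in Opcml, Cadm1, Cadm2 and Dscam. The median distance to the nearest TSS of the gene was 107 kb in OPCs and 121 kb in NFOs. In OPCs 1 peak, in Lsamp, lay within 5 kb of the TSS of another gene, Gm28750.

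Of the 54 NFO peaks, 13 (24.1%, 13.5 to 37.6%) overlapped a listed H3K27me3 peak of NSCs. The share was 15.8% over the whole NFO list, inside that interval, and 13.8% over NFO peaks in long genes. Of the 13, 6 lay in Nrxn3, 3 in Dscam, 2 in Lsamp and 1 each in Ntm and Cadm2. Their enrichment for OLIG2 ran from 5.24 to 13.9-fold with a median of 6.77, against a median of 8.62 for the other 41. In OPCs 1 of 16 overlapped such a peak, against 15.2% of the whole list and 14.3% of OPC peaks in long genes. None of the 54 NFO peaks overlapped an H3K4me3 or H3K27me3 peak of NFOs, and the whole list gave 8.23% and 2.44%. With the same limit of 5.56%, and with the exact binomial interval, which reaches 6.60%, the share for H3K4me3 was below that of the whole list. NFO peaks in all long genes gave 5.7%, inside the exact interval, so the share for H3K4me3 could not be told from theirs. The share for H3K27me3 could not be told from that of the list. None of the 16 OPC peaks overlapped H3K4me3 of OPCs (12.6% of the list, with a limit of 18.8% for these 16), and 1, in Cadm1, overlapped H3K27me3 of OPCs (10.5% of the list). The OPC peak before Nrxn3, outside the body, overlapped H3K4me3 of OPCs and no H3K27me3 peak.

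An E-box was found in 11 of 16 OPC peaks (68.8%, 41.3 to 89.0%) and in 38 of 54 NFO peaks (70.4%, 56.4 to 82.0%), close to the 70.4% and 69.3% of the whole lists, whose peaks have median lengths of 230 and 236 bp. CAGATG or its complement CATCTG was held by 14 of 54 NFO peaks (25.9%, 15.0 to 39.7%) against 17.4% of the list. CAGCTG was held by 2 of 54 (3.70%, 0.452 to 12.7%) against 10.1%, and CATATG by 6 of 54 (11.1%) against 6.51%. Each of these list shares lies inside the interval for the 54 peaks. In OPCs 2 of 16 held CAGATG or CATCTG (18.9% of the list) and 2 held CAGCTG (13.6%). Some of the printed sequences carry long runs of C and T, a feature counted because it was seen there. A run of at least 20 bases of C and T, or of A and G, was held by 37.5% of the OPC and 35.2% of the NFO peaks, against 44.2% and 43.0% of the lists. Soft-masked repeats made up over 50% of the sequence in 2 of 16 OPC and 9 of 54 NFO peaks (16.7%), against 22.2% and 28.5% of the lists.

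Every one of the 9 genes had an H3K4me3 peak within 2 kb of a TSS in NSCs, in OPCs and in NFOs. Among long genes the share was 89.6%, 92.1% and 74.4%, and 71.3% had one in all 3. The 70 annotated TSSs of the 9 genes, joined where they lie within 2 kb of each other, formed 28 promoters. H3K4me3 was listed at 14 of them in all 3 cell types and at the other 14 in none, so no promoter was marked in some cell types only. The 14 marked promoters had a median GC content of 56.3% in the 1 kb around the TSS (47.4 to 68.6%), and the unmarked ones 41.8% (31.0 to 47.1%). The ranges did not overlap. The median observed-to-expected CpG ratio was 0.595 at marked (0.265 to 0.884) and 0.188 at unmarked promoters (0.0501 to 0.377), and these ranges did overlap.

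In 4 of the 9 genes, Nrxn3 and the 3 IgLON genes, H3K4me3 lay in all 3 cell types at promoters more than 10 kb apart, which held for 11.6% of long genes. The pattern was chosen after it was seen. In Nrxn3 the inner promoter (chr12:89812483) lies 1090 kb into the gene and is the start of a shorter transcript. Inner promoters were marked in Lsamp 1548 kb into the gene, in Opcml 612.4 kb and in Ntm 550.9 kb. At the inner promoter of Nrxn3 the enrichment was 9.24-fold in NSCs, 6.47-fold in OPCs and 6.57-fold in NFOs, and at the first promoter 10.4, 12.5 and 13.1-fold. At the inner promoter of Lsamp it was 8.92, 6.41 and 4.40-fold, and at the first 10.1, 7.24 and 4.14-fold. In Opcml the first promoter gave 4.51, 7.74 and 7.65-fold and the inner one 6.79, 4.42 and 3.55-fold. In Ntm the first promoter gave 11.8, 13.1 and 20.97-fold and the inner one 6.52, 6.80 and 5.51-fold. In each of these genes the NFO enrichment was lower at the inner promoter than at the first except in Lsamp.

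The highest H3K4me3 enrichment of the 9 genes was at Ntm in NFOs (20.97-fold over 320 bp). In NSCs it was at Cadm2 (15.2-fold) and in OPCs at Ntm (13.1-fold). Cadm2 had 12.2-fold in OPCs and 10.2-fold in NFOs. Dscam had 7.57-fold in NSCs, 8.05-fold in OPCs and 9.59-fold in NFOs, values that, like all of these, have no replicate. Cadm1 had 9.10, 6.38 and 7.49-fold, and Ptprk 7.90, 8.40 and 6.02-fold. Pcdh9 had 9.27, 7.46 and 4.81-fold, each the highest of its peaks and not all at 1 promoter. The NFO value was that of a 431 bp peak at the second promoter, where an NSC peak also had 4.81-fold. At the first promoter the NSC peak had 9.27-fold and the NFO peak 4.04-fold. Over the 14 promoters the median was 9.17-fold in NSCs, 7.46-fold in OPCs and 6.30-fold in NFOs, and the NFO value was the lowest of the 3 at 8 of them. The summed width of the peaks was smallest in NFOs in all 9 genes, from 530 bp in Ntm to 4917 bp in Pcdh9, and so it was in 89.6% of the long genes marked in all 3. Over the whole lists the median H3K4me3 width was 553 bp for NSCs, 987 bp for OPCs and 256 bp for NFOs. The widest peak was that of Pcdh9 in OPCs, 7795 bp, which joined both of its promoters.

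**Figure D4:**
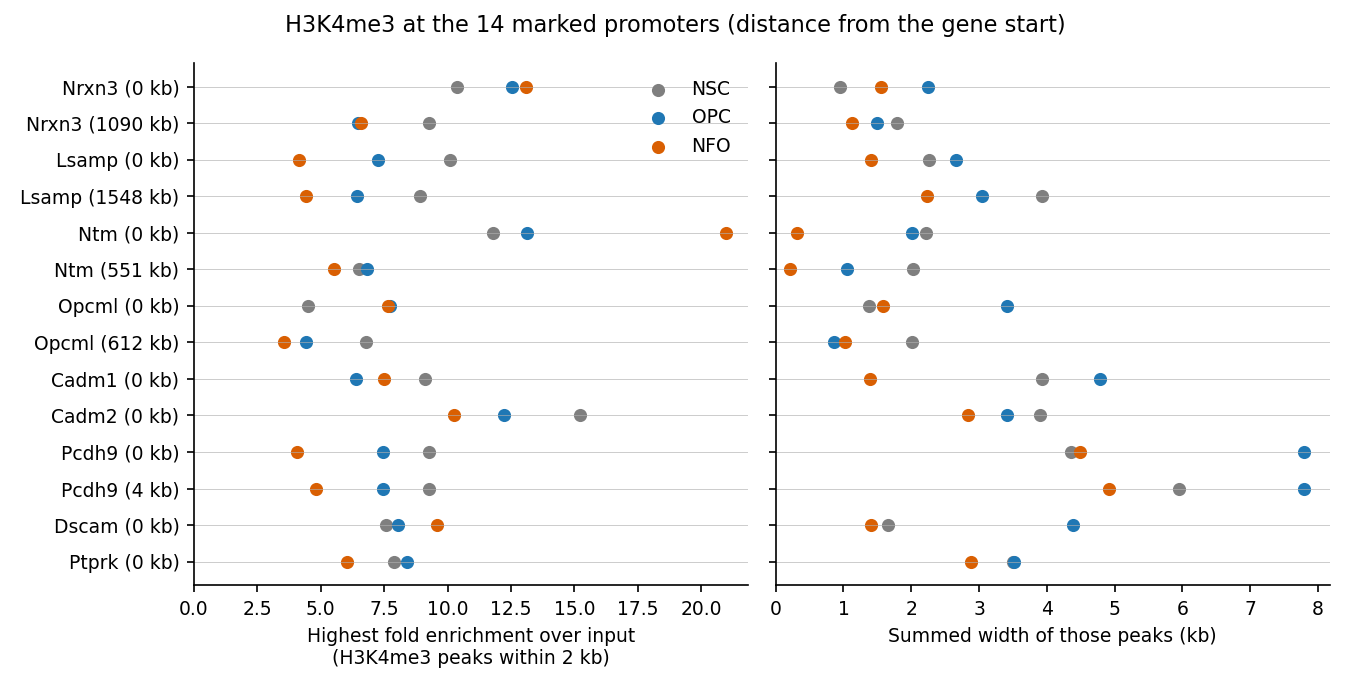
H3K4me3 at the 14 promoters that were marked, named by gene and distance from its first TSS, in NSCs, OPCs and NFOs. The left panel gives the highest fold enrichment over input of the peaks within 2 kb and the right panel their summed width, and Ntm in NFOs combines the highest enrichment (20.97-fold) with 320 bp of width.

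H3K27me3 within 2 kb of a TSS was listed in 2 of the 9 genes in NSCs, 2 in OPCs and none in NFOs, against 29.8%, 33.2% and 22.8% of long genes. In NSCs these were Nrxn3 and Cadm2, and in OPCs Nrxn3 and Cadm1. The inner promoter of Nrxn3 carried H3K27me3 in NSCs (365 bp, 5.97-fold) and in OPCs (251 bp, 5.19-fold), in both overlapping the H3K4me3 peak, and none in NFOs. A second NSC peak lay at the first promoter of Nrxn3 (1194 bp, 3.03-fold), beyond the end of the H3K4me3 peak there. The peak of Cadm2 in NSCs (369 bp, 3.36-fold) lay within a 3896 bp peak of H3K4me3. These NSC peaks of the first Nrxn3 promoter and of Cadm2 are under 3.5-fold, the filter of the methods, and with it Nrxn3 alone remains in NSCs. In OPCs the peak of Cadm1 (chr9:47528837-47529510, 7.62-fold) lay before the gene start and overlapped the edge of the H3K4me3 peak. Just inside the 2 kb window was Cadm2 (1605 bp from a TSS), and just outside were the NSC peaks of Ptprk (2084 bp, 6.18-fold) and Ntm (2992 bp, 5.20-fold). The Ptprk peak, though outside the window, lay within the 3502 bp H3K4me3 peak of its promoter in NSCs. Both OPC peaks end on a base where another list also has a peak edge, 89813220 in Nrxn3 (H3K4me3 of OPCs and of NFOs) and 47529510 in Cadm1 (H3K4me3 of NFOs). Over the whole lists, OPCs and NFOs shared 2722 edges in H3K4me3 (7.44% of the OPC edges) and 1322 in H3K27me3. The H3K27me3 list of OPCs shared 984 edges with the H3K4me3 list of NFOs and 393 with that of OPCs, the lists of both marks in NFOs shared 524, and no pair of lists with NSCs shared more than 43. The part of this in the results, the presence of H3K4me3 at the same promoters in OPCs and NFOs included, was not tested.

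Along the bodies, most of the listed H3K27me3 peaks were those of NSCs. The 9 bodies held 97 in the NSC list, 13 in the OPC list and 5 in the NFO list. Against the density of the chromosomes the ratios were 0.826 (0.670 to 1.01), 0.145 (0.0774 to 0.248) and 0.133 (0.0432 to 0.311), where all long genes together gave 0.819, 0.758 and 0.883. Taken gene by gene, the median ratio of the 9 was 0.444, 0.0601 and 0. That of the long genes was 0.698, 0.253 and 0, so the medians were equal in NFOs. Nrxn3 held 46 of the 97, or 2.85 per 100 kb (2.09 to 3.81) against 1.25 on chromosome 12, and was the only gene above its chromosome in NSCs, ranking 9th of the 567 long genes. The share of long genes above it was 28.7%. None of the 9 was above in OPCs (21.9% of long genes) or NFOs (21% of long genes). Without Nrxn3 the NSC ratio was 0.525. Nrxn3 held 3 such peaks in OPCs and none in NFOs. The ratio was lower in OPCs than in NSCs for 7 of the 9 genes, all but Cadm1 and Pcdh9, against 67.5% of long genes.

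**Figure D5:**
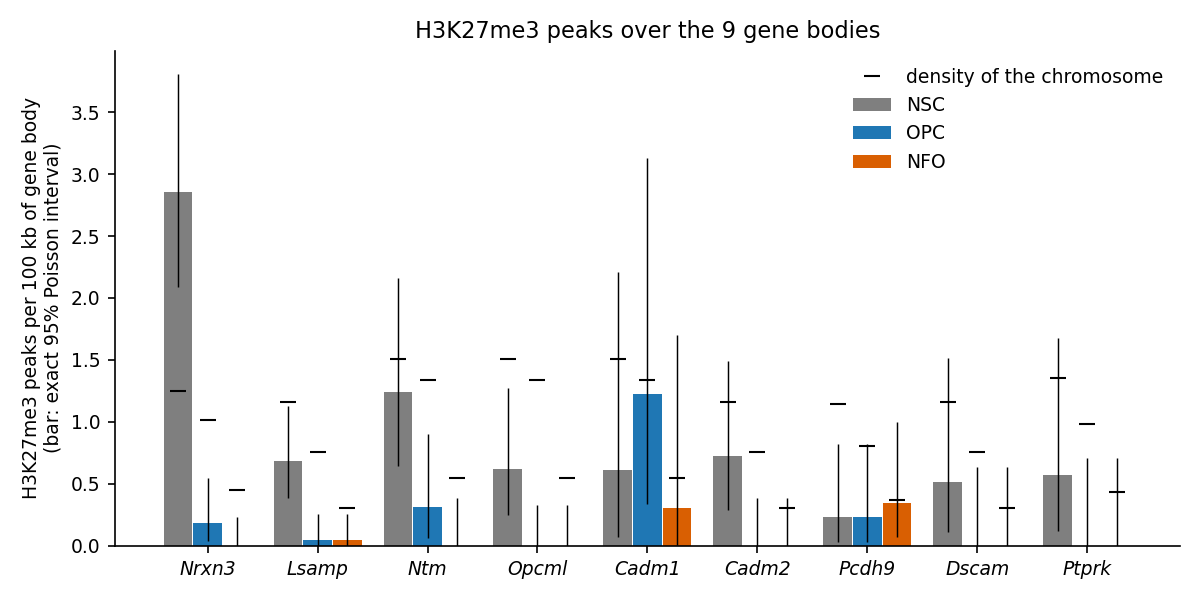
H3K27me3 peaks per 100 kb of gene body in NSCs, OPCs and NFOs, with exact 95% Poisson intervals as error bars and short black lines for the density of the chromosome in the same list. Nrxn3 in NSCs, at 2.85 per 100 kb, is the only bar above its line.

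The NSC peaks in the bodies were narrow, 63 of the 94 more than 2 kb from any TSS of the gene being under 500 bp wide, with medians from 277 bp in Cadm1 to 406 bp in Pcdh9. Away from the TSSs they covered 1.43% of the body of Nrxn3 and 0.750% of that of Ntm, and at most 0.417% of the other 7. Lsamp held 15 in NSCs, 1 in OPCs and 1 in NFOs. Ntm held 12, 3 and none, Opcml 7, none and none, and Cadm2 7, none and none. Dscam and Ptprk held 3 each in NSCs and none in the other cell types. Cadm1 held 2, 4 and 1, and Pcdh9 2, 2 and 3, so these were the genes without a lower count in OPCs. The whole H3K27me3 lists held 36069, 29417 and 12688 peaks for NSCs, OPCs and NFOs, with median widths of 341, 329 and 580 bp.

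Among 17 relatives of the same families, 6 held an OLIG2 peak in OPCs and 9 in NFOs, with 13 and 23 peaks in all. Their median ratio was 0 in OPCs and 0.401 in NFOs, where the 9 genes had medians of 0.540 and 0.855 and many relatives are shorter than them (Pcdh8 spans 4.54 kb). A listed peak in the body was found in 68.3% of long genes in OPCs and 90.8% in NFOs. These shares are not a like comparison for shorter genes, and no share over all genes was counted for OLIG2. The highest OPC density per 100 kb was that of Dscaml1, the paralog of Dscam, with 6 peaks (1.83 per 100 kb, ratio 5.62, 2.06 to 12.2). In NFOs Dscaml1 held 2 peaks (ratio 0.821, 0.0994 to 2.97), where Dscam had 1.95 in OPCs and 2.32 in NFOs, and the intervals of the pair overlapped in both lists. The highest NFO density was that of Nrxn2 (2 peaks, 1.59 per 100 kb), a presynaptic relative of Nrxn3 with a body of 125.4 kb. Relatives without a listed peak in either cell type, the lowest density, were Iglon5, Cadm3, Cadm4, Pcdh1, Pcdh8, Pcdh10, Pcdh17 and Pcdh19. H3K4me3 lay within 2 kb of a TSS in all 17 in NSCs and OPCs and in 15 in NFOs, the exceptions being Iglon5 and Pcdh8. H3K27me3 lay at Pcdh8, Pcdh11x, Dscaml1 and Ptprm in NSCs, at Ptprm in OPCs and at none in NFOs.

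Of 8 partners of neurexins on the opposite membrane or in the synaptic cleft, 3 held an OLIG2 peak in OPCs and 2 in NFOs. Nlgn1, the neuroligin with the longest body here (906.2 kb), held 4 and 5 (ratios 1.80 and 0.946). The highest OPC density was that of Nlgn3, 1 peak in 26.8 kb, and the highest NFO density that of Lrrtm3, 1 peak in 161.8 kb. Nlgn2, Lrrtm1, Lrrtm2, Cbln1 and Cbln2 held none. All 8 had H3K4me3 in the 3 cell types. H3K27me3 lay at the cerebellin genes Cbln1 and Cbln2 in all 3, and at Lrrtm1 in NSCs. In NFOs the other partners, like Nrxn3, had no listed H3K27me3 peak within 2 kb of a TSS. The shares over all protein-coding genes given above for the relatives stand beside these H3K4me3 and H3K27me3 counts too.

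RIP-Seq, in which RNA bound to a protein is precipitated and sequenced, gave 1 library with an OLIG2 antibody and 1 with IgG. The labels call these cells NFOs and the methods of the study NSCs, so the cell type is uncertain, and the IgG library is titled as an input. The lists name sites in 613 and 618 genes, and 104 and 106 of the 567 long genes. Sites were listed in transcripts of Lsamp, Cadm2, Pcdh9 and Dscam and in none of the other 5. Within 5 Mb of Ntm, Opcml, Cadm1 and Ptprk, the OLIG2 list held at most 1 site of any gene, so the lists say little of those genes. Each position was counted once. Dscam had 202 OLIG2 sites with 1716 tags and 126 IgG sites with 1239 tags, a tag ratio of 1.38. Lsamp had 475 sites with 3547 tags against 360 with 3944 (ratio 0.899). Cadm2 had 164 with 1238 tags against 137 with 1308 (ratio 0.946), and Pcdh9 234 with 1400 against 181 with 1620 (ratio 0.864). Over the whole lists the ratio was 1.01. Dscam was above it and the other 3 below, while for distinct sites Dscam (1.60), Lsamp (1.32) and Pcdh9 (1.29) were above the whole lists (1.21) and Cadm2 (1.20) just below. Between 1 and 5 sites a gene began on the same base in both lists, and how deeply these libraries were read is unknown.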

How the data were processed

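Peak lists of H3K4me3 and H3K27me3 (6 libraries), of OLIG2 in OPCs and NFOs (2) and of RIP-Seq with OLIG2 or IgG (2) were used, with 1 library per group. Input libraries and OLIG2 in NSCs were not analysed here. The authors mapped reads to mm10 with Bowtie2 and kept unique reads. They called OLIG2 peaks with SPP and broad histone peaks with MACS2, per library, and removed blacklisted regions. The deposited lists give the fold enrichment of each peak, a ratio over input. They also hold the −log10 of the FDR that the authors' callers gave. RIP-Seq sites were called by the authors with ASPeak, and each has a deposited tag count, a whole number that was not normalized.

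The lists keep peaks below the filter of the methods. All listed peaks were used, as the choice of genes asked, and the filter (FDR below 0.05, fold above 5 for OLIG2 or 3.5 for histone marks) was an alternative. Depth is unknown from the lists, so the numbers of peaks limit the precision. Genes came from GENCODE M21 (GRCm38). A peak was counted in a body by its midpoint, and the density of a chromosome is its peak count over its length. Histone peaks counted at a TSS when any base lay within 2 kb. RIP-Seq transcripts were matched to M21 without their version number. The members and lists were chosen with earlier results of these data known. Named besides the 9 genes were relatives with the highest and lowest OLIG2 density or with H3K27me3 at a TSS, and genes with a TSS within 5 kb of an OLIG2 peak in a body. Sequences shown were the peaks of highest fold and, of the peaks within 5 kb of a TSS, 3. Some items that these rules and lists take in are not reported here. Counting was tested on simulated data. Tools were Matplotlib 3.10.9, pysam 0.24.0, SciPy 1.17.1, pandas 2.3.3 and NumPy 2.4.6 under Python 3.11.15.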

Additional observations from a re-analysis of the deposited data

How the results depend on the processing

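With 1 library per group, no library could be left out, and an alternative was set against the 95% Poisson interval of the value. No paired analysis was possible because no group has more than 1 library. The pooled OLIG2 ratio of the 9 bodies stayed inside its interval under 6 other settings of the threshold, the body and the background density, from 0.453 to 0.720 in OPCs and from 0.710 to 0.994 in NFOs, and so it did without Dscam (0.527 in OPCs, 0.787 in NFOs), without Lsamp in OPCs (0.539) and without Opcml in NFOs (0.798), which were left out after seeing the data. These settings count largely the same peaks or a part of them, 6 in OPCs with a fold over 10. A pooled value inside its interval therefore does not show stability. With 1 to 12 peaks a gene, the intervals of single genes are wide, so values inside them (101 of 108) do not show stability. Of these, 7 crossed 1: with a fold over 10 Opcml (0.540 to 1.82), Pcdh9 (0.494 to 1.66) and Lsamp (0.860 to 1.04) in OPCs and Ptprk (0.544 to 1.63) and Nrxn3 (1.14 to 0.687) in NFOs, with the filter of the methods Cadm1 in OPCs (0.935 to 1.07), and against the density within protein-coding genes Nrxn3 in NFOs (1.14 to 0.858). The 7 outside fell to 0: in OPCs Ntm with the filter of the methods, and Nrxn3, Ntm, Cadm1, Cadm2 and Ptprk with a fold over 10, and in NFOs Ntm without the 5 kb around its TSSs, since each held 1 peak there. The number of genes with H3K4me3 stayed at 9 except with a fold over 5 in NFOs, where it was 7. For H3K27me3 in NSCs it was 1 in place of 2 with a window of 1 kb, with the filter of the methods and with a fold over 5, and 0 with the gene start as the only TSS. In OPCs it was 1 in place of 2 with the gene start alone. No peak was shared under any setting tried. Without Nrxn3, also chosen after seeing the data, the NSC H3K27me3 ratio over the bodies was 0.525 in place of 0.826. The read depth of the libraries is unknown, so numbers of peaks in 2 lists cannot be put on 1 scale.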
